A study of Sus scrofa with 2 samples.

Results

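Solute carrier (SLC) genes encode membrane transporters for sugars, amino acids, metals, vitamins and other solutes, and they were examined here in ovarian tissue of conventional pigs and minipigs. Members were the genes whose official pig symbol starts with SLC and a digit and that a probe of the array reached through its RefSeq transcript accession. This gave 66 of the 2459 genes that could be named on the arrays, with 139 of the 5577 named probes. The pig RefSeq annotation lists 355 such symbols, so most SLC genes were not analysed here. Total RNA came from ovaries of Yorkshire sows (the conventional pigs) and Midget pigs (the minipigs) on day 15 of the estrous cycle, after the corpora lutea had been excised. By the methods the animals were 10 months old. The methods name 5 animals per breed without saying whether an array carried RNA of 1 animal or of a pool. Each breed was measured on 1 single-colour Agilent array, and below each breed stands for its array.

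SLC proteins move solutes down a gradient or couple them to the flow of another ion, most often sodium or protons, whereas the sodium pump spends ATP to keep the sodium gradient that many of them use. In the follicle, granulosa cells take up glucose and amino acids and pass pyruvate, lactate and amino acids on to the oocyte. Zinc carriers fall into SLC30 and SLC39 proteins. Most SLC30 proteins carry zinc out of the cytosol into vesicles, the secretory pathway or the outside, and SLC39 proteins bring it into the cytosol. SLC25 proteins exchange metabolites across the inner mitochondrial membrane.

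The values are processed spot intensities, compared as log2 differences, conventional pig minus minipig, after each array was set to 0 at its 75th percentile. The percentile lay at an intensity of 513 in the conventional pig and 494 in the minipig, so ratios of raw intensities differ little from the scaled ones. Where several probes matched a gene, their median was taken. Of the SLC probes, 127 (91.4%, conventional pig) and 130 (93.5%, minipig) were well above background, against 85.2% and 88.1% of all 43597 probes. With 1 array per breed there was no replicate check, so no test was run and every difference describes these arrays alone. None of the SLC probes was printed more than once. The only technical error therefore comes from 42 other probes, whose repeated spots gave an SD of 0.25 log2 for a difference between single spots. The authors' table of log2 values exchanges the breeds relative to the scanner files. The scanner labels are used throughout, and under the labels of the table each direction below is the opposite one.

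Of the 66 SLC genes, 64 had a difference or a bound, and as a group they lay close to all named genes. The median log2 difference was 0.01, against 0.04 over all 2363 named genes with a value, and 32 genes were above 0, or 50%, against 52.5% of all named genes. Centring the arrays on their medians instead raised the median of all named genes by 0.15 and put 42 SLC genes above 0. At least 2-fold higher in the conventional pig were 7 genes, or 10.9%, near the 11.7% of all named genes. Past 2-fold the other way, higher in the minipig, lay 2 genes, or 3.12%, against 7.96% of all named genes. Differences were under 1.3-fold for 33 of the 64 SLC genes and for 1052 of the 2363 named genes. At 1.3-fold, 24 genes were higher in the conventional pig, where the share over all named genes was 31.4%, and 7 in the minipig, where it was 24%. At 1.5-fold the counts were 14 and 5, beside shares of 23.7% and 16.2%, and at 3-fold 2 and 1, beside 5.46% and 3.09%. Taken over both directions, 14.1% of SLC genes and 19.7% of all named genes were past 2-fold. Among the members without a value was SLC12A1, a kidney-type sodium-potassium-chloride cotransporter that did not stand well above background in either breed.

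**Figure D1:**
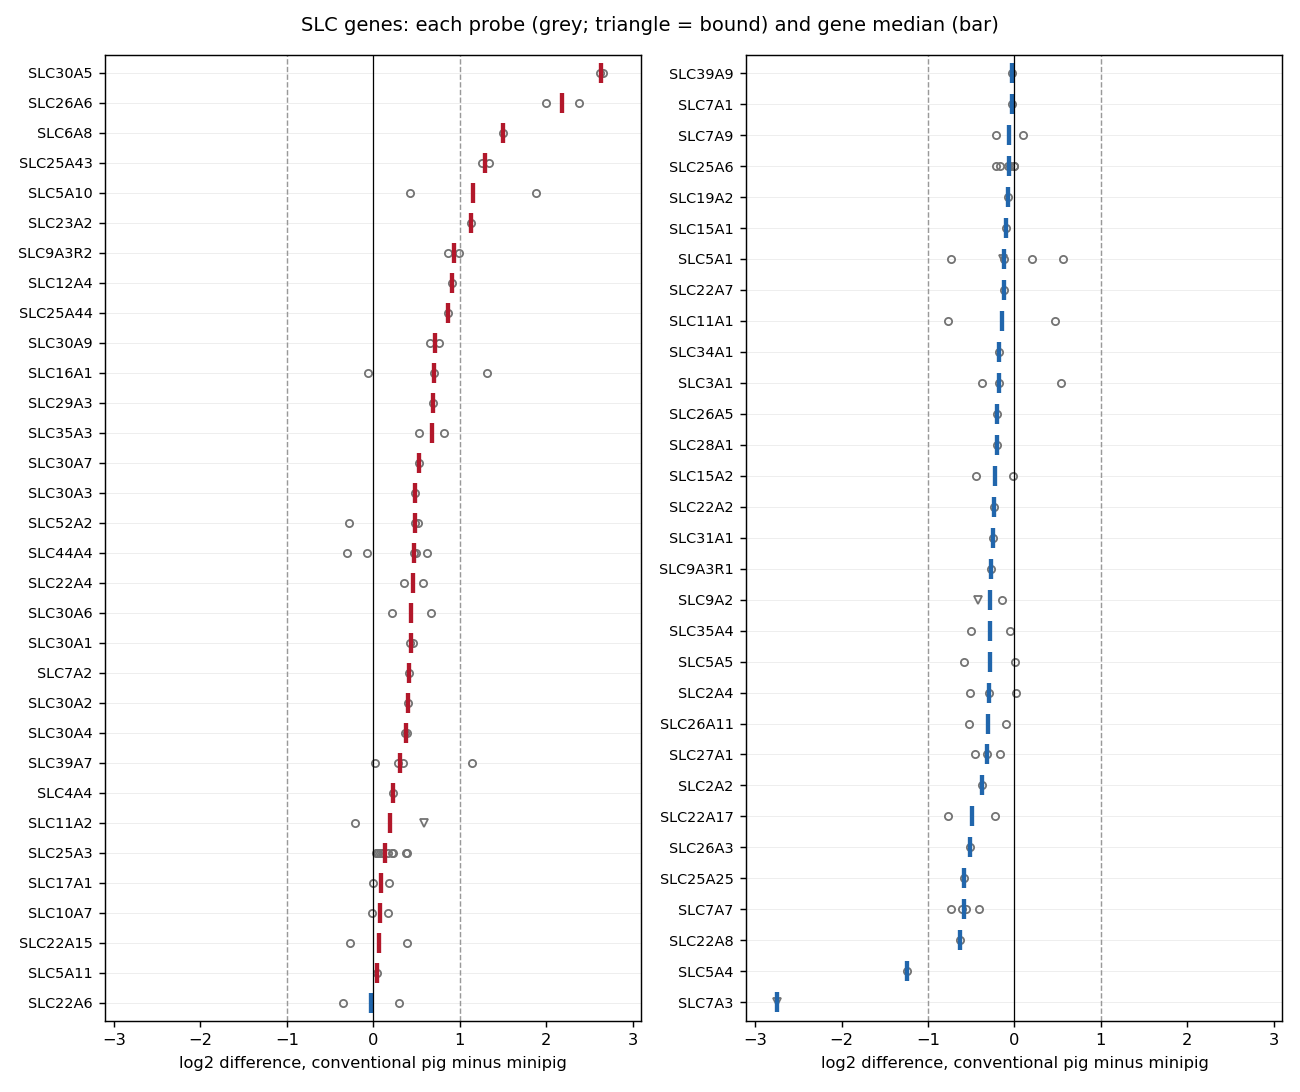
Log2 difference (x axis, conventional pig minus minipig) of 63 SLC genes with a value, ordered by gene median; circles are single probes measured on both arrays, triangles are probes well above background on 1 array only (bounds), coloured bars are gene medians, and dashed lines mark 2-fold. Beyond the dashed lines lie 6 of these medians on the right and 2 on the left.

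The largest difference on the conventional pig side was that of SLC30A5, a zinc transporter of the early secretory pathway that supplies zinc to enzymes such as alkaline phosphatase. Its first probe read 528 in the minipig and 3368 in the conventional pig, and its second read 1205 and 7880. Both probes gave nearly the same log2 difference, 2.62 and 2.66, and the median corresponds to 6.23-fold.

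SLC26A6, an exchanger of chloride for bicarbonate or oxalate in epithelia, followed with a median of 2.19 (4.56-fold). One probe read 648 in the minipig and 2676 in the conventional pig, and the other 228 and 1233. Here too both probes were near or past 4-fold on the same side. SLC6A8, which imports creatine with sodium and chloride, was measured by 1 probe, at 394 in the minipig and 1153 in the conventional pig (2.82-fold). SLC25A43, a mitochondrial carrier whose substrate is not settled, gave 1.26 and 1.34 from its probes, which read 491 and 298 in the minipig and 1215 and 782 in the conventional pig.

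SLC5A10, a sodium-coupled carrier of mannose and fructose, had a median of 1.15 from probes that did not match in size. One probe read 301 in the minipig and 419 in the conventional pig (0.42), and the other 452 and 1735 (1.89). SLC23A2, which imports ascorbate into cells, rested on 1 probe at 83.0 and 189 (1.13).

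Higher in the minipig by at least 2-fold were SLC7A3 and SLC5A4, each from 1 probe. SLC7A3, a cationic amino acid transporter for arginine and lysine, read 74.8 in the minipig and 11.3 in the conventional pig, where it was not well above background. This makes it at least 6.73-fold higher in the minipig, and it was the lowest value of all SLC genes. SLC5A4, of the sodium-glucose cotransporter family, read 1402 in the minipig and 615 in the conventional pig, a log2 difference of -1.24 and a 2.37-fold excess in the minipig.

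**Figure D2:**
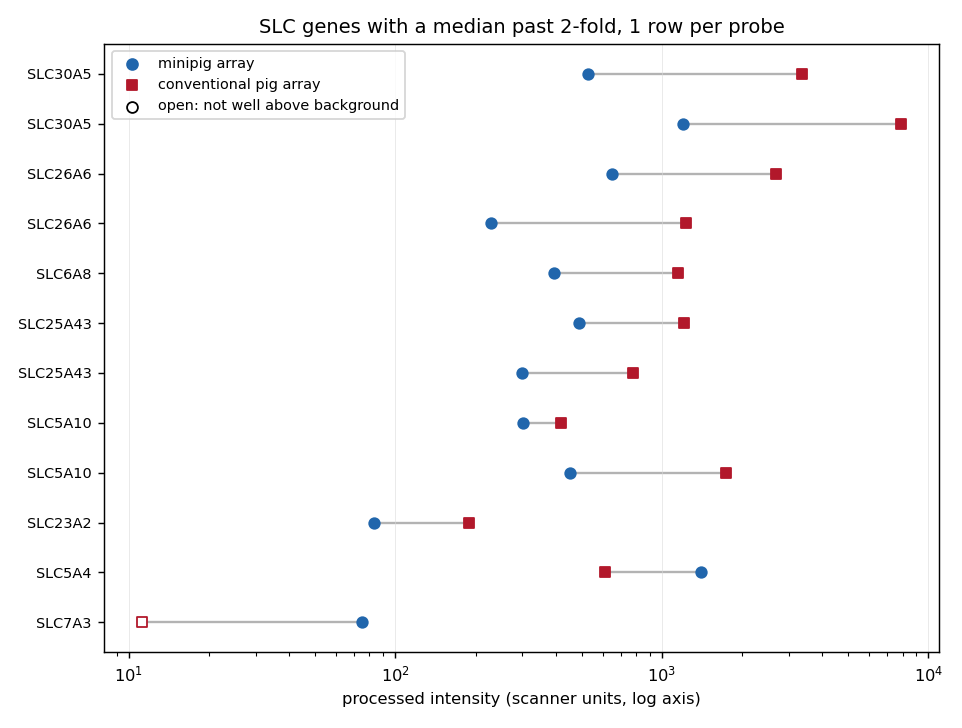
Processed intensity (x axis, log scale) of each probe with a value for 8 SLC genes whose median was past 2-fold; blue circles are the minipig array, red squares the conventional pig array, and the open symbol was not well above background. The 10 probes of the upper 6 genes read higher in the conventional pig, and those of SLC5A4 and SLC7A3 read higher in the minipig.

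Of the 10 zinc carriers with a value, 9 were higher in the conventional pig, beside 52.5% of all named genes. All 8 measured SLC30 genes were at least 1.3-fold higher in the conventional pig, where 31.4% of all named genes were. Their medians ran from 0.38 to 2.64 with a family median of 0.46. Attention was drawn to this family after its values had been seen, so the count is a description. Only SLC30A5 was past 2-fold. SLC30A9 (0.71) came next, read by probes at 746 and 75.5 in the minipig and at 1224 and 132 in the conventional pig. SLC30A7, which loads zinc into the Golgi, read 518 and 777 (0.53). SLC30A3, best known from synaptic vesicles, read 1100 and 1601 (0.49).

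SLC30A1, the zinc exporter of the plasma membrane, had closely matched probes. These read 361 and 353 in the minipig and 503 and 502 in the conventional pig, with a median difference of 0.44. SLC30A6, another SLC30 protein of the Golgi, also had a median of 0.44, but its probes gave 0.21 and 0.67. SLC30A2 (0.40) and SLC30A4 (0.38), known from secretory vesicles of the mammary gland, were dim, with intensities of 36.4 to 68.1 on either array. Of the SLC39 importers 2 were measured. SLC39A7, which releases zinc from the endoplasmic reticulum and Golgi, had a median of 0.31, although its 4 probes ran from 0.02 to 1.14. SLC39A9 read 186 and 189, a difference of -0.03. Apart from SLC30A5, the SLC30 medians reached at most 0.71, beside a spot SD of 0.25. Under normexp background correction the lowest of the 8 came to 0.03 and 4 were past 1.3-fold, while all 8 remained above 0 in each alternative that scores them all.

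**Figure D3:**
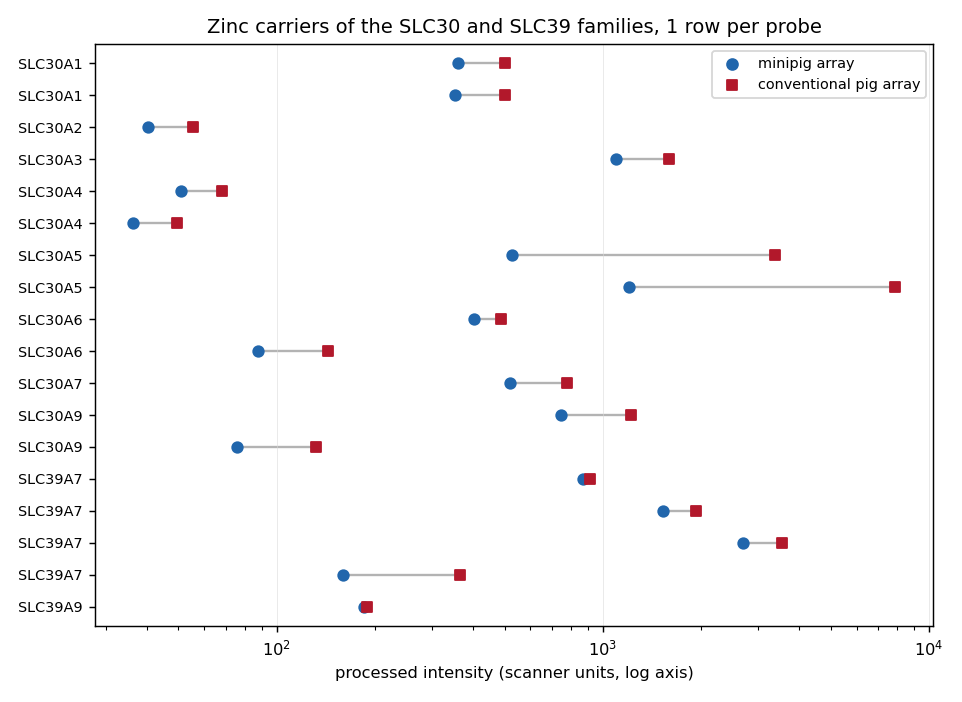
Processed intensity (x axis, log scale) of each probe of the zinc carriers of the SLC30 and SLC39 families; blue circles are the minipig array and red squares the conventional pig array. Every SLC30 probe reads higher in the conventional pig, with the widest gap for SLC30A5, while SLC39A9 and 1 probe of SLC39A7 hardly separate.

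The other classes of at least 3 genes each held genes on both sides of 0. Since median centring adds about 0.15 to each value, class medians and genes within that distance below 0 turn sign under it. Mitochondrial carriers (6 genes) had the highest median of the classes with at least 3 genes, 0.50, close to vitamin (0.48) and zinc carriers (0.44). That median fell in a gap, with no gene of the class between 0.14 and 0.87. SLC25A43 led the class, and SLC25A44, a carrier of branched-chain amino acids, was at 0.87 (180 in the minipig, 341 in the conventional pig). The carriers that serve oxidative phosphorylation lay nearer to 0. SLC25A3, which imports phosphate for ATP synthesis, had a median of 0.14 over 10 probes from 0.03 to 0.39. SLC25A6, an ADP/ATP exchanger, had -0.07 over 6 probes from -0.21 to 0.00, and binding of its close paralogs by these probes was not tested. At the other end was SLC25A25, a calcium-regulated carrier of ATP-magnesium and phosphate, at -0.59 from 1 dim probe that read 38.6 and 26.7.

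Sugar carriers (6 genes) had a class median of -0.21. The glucose transporters SLC2A2 and SLC2A4, the hepatic and the insulin-responsive types, gave -0.37 and -0.30. SLC2A2 read 49.5 in the minipig and 39.6 in the conventional pig. The 3 probes of SLC2A4 ran from -0.51 to 0.02. SLC5A1, the intestinal sodium-glucose cotransporter, had a median of -0.12, while its 5 probes spread from -0.73 to 0.57. SLC5A11, a myo-inositol carrier, read 55.2 and 59.0 (0.04). SLC2A1, SLC2A3, SLC16A3 and SLC16A7, the other carriers of glucose and lactate set to be reported, were not named on the arrays by accession and were not analysed here. SLC16A1, which carries lactate and pyruvate with a proton, had a median of 0.70, but its probes disagreed. They read 446, 239 and 98.3 in the minipig and 442, 404 and 255 in the conventional pig, giving -0.06, 0.70 and 1.32.

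Among amino acid carriers (6 genes, class median -0.12), SLC7A7, a light chain that exports cationic amino acids in exchange for neutral ones, had 4 probes. All 4 were higher in the minipig, from -0.73 to -0.42, with a median of -0.59. The other cationic amino acid transporters of the family were under 2-fold. SLC7A1 read 1061 in the minipig and 1078 in the conventional pig (-0.03). SLC7A2 read 269 and 372 (0.41), the highest of the class. SLC7A9 and SLC3A1, the light and heavy chains of the renal cystine transporter, gave -0.06 and -0.18, and the probes of SLC3A1 ran from -0.38 to 0.54.

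Organic ion carriers of the SLC22 family (7 genes) had a class median of -0.12, with 5 below 0 and none past 2-fold. They ran from SLC22A8 at -0.63 (267 in the minipig, 179 in the conventional pig) to SLC22A4, the ergothioneine carrier, at 0.46. SLC22A17, a receptor for lipocalin 2, had a median of -0.50 from probes that gave -0.77 and -0.23. The anion carriers comprised 4 SLC26 genes and the iodide symporter SLC5A5. Apart from SLC26A6, they lay from -0.51 (SLC26A3) to -0.20 (SLC26A5), so that the class median was -0.29 although its leading gene was at 2.19. The value of SLC26A3 rested on 1 dim probe (23.8 in the minipig, 17.4 in the conventional pig) and was -0.18 under quantile normalization.

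Vitamin carriers (3 genes) were led by the ascorbate carrier SLC23A2, followed by the riboflavin carrier SLC52A2 at 0.48 and the thiamine carrier SLC19A2 at -0.08. The brightest probe of SLC52A2 went the other way, at -0.27. Carriers of iron and copper (3 genes) were all under 1.3-fold. They ran from the copper importer SLC31A1 (-0.24) to the iron importer SLC11A2 (0.19). SLC31A1 rested on 1 dim probe (23.7 in the minipig, 20.8 in the conventional pig) and was 0.06 under quantile normalization. Of the 2 probes of SLC11A2, 1 was well above background in the conventional pig alone. Under normexp correction SLC11A2 was at -0.28. SLC11A1, a metal exporter of macrophage phagosomes, had a median of -0.15 from probes at -0.77 and 0.47.

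The remaining classes had 1 or 2 genes with a value. Besides SLC6A8 and SLC16A1, those above 0 included SLC12A4, a potassium-chloride cotransporter that read 491 in the minipig and 957 in the conventional pig (0.91), SLC29A3, a lysosomal nucleoside carrier (0.70), and SLC35A3, which carries UDP-N-acetylglucosamine into the Golgi (0.67). The choline carrier SLC44A4 had a median of 0.47, although its 5 probes ran from -0.30 to 0.62. The peptide carriers SLC15A1 and SLC15A2 gave -0.10 and -0.23. The fatty acid carrier SLC27A1 had a median of -0.32, and all 3 of its probes were higher in the minipig. SLC9A3R1 and SLC9A3R2 are scaffold proteins that bind carriers and are not carriers themselves. They gave -0.27 and 0.93, the latter from probes that read 364 and 649 in the minipig and 687 and 1344 in the conventional pig.

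**Figure D4:**
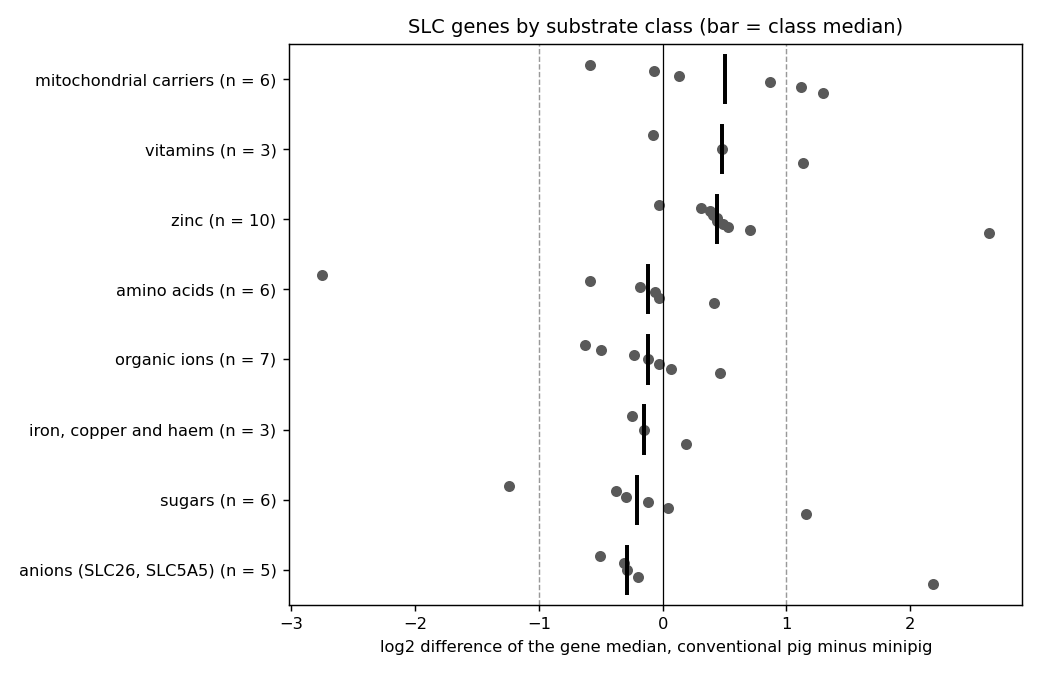
Log2 difference of the gene medians (x axis, conventional pig minus minipig) for the 8 substrate classes with 3 or more measured SLC genes; each point is a gene, vertical bars are class medians and dashed lines mark 2-fold. Of the 10 zinc carriers 9 lie above 0, and the other classes hold single genes far from their medians, such as SLC26A6 at 2.19 and SLC7A3 at -2.75.

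Probes of the same gene often differed. Of 36 SLC genes with 2 or more probes with a value, bounds included, 22 (61.1%) had all these probes on the same side of 0. Over all named genes it was 71.7% of the 1264 such genes. The median range between the lowest and the highest probe of a gene was 0.43 log2, and the widest was 1.46, for SLC5A10. Another 28 SLC genes rested on 1 probe. No SLC gene had probes past 2-fold in opposite directions. Among the genes past 2-fold, SLC6A8, SLC23A2, SLC5A4 and SLC7A3 rested on 1 probe, and SLC30A5, SLC26A6, SLC25A43 and SLC5A10 had all probes on the same side.

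Genes that work with SLC carriers were taken from lists, of which few members could be named on the arrays. The sodium pump, whose gradient drives sodium-coupled carriers, had its beta subunit ATP1B1 at 2.48. The probes of ATP1B1 read 1431 and 1777 in the minipig and 8534 and 10008 in the conventional pig, so that both were past 2-fold on the same side. Of this list of 14 genes, 4 had a value, among them the pump regulators FXYD2 (-0.80) and FXYD3 (0.14).

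Of 16 listed partners and scaffolds 3 had a value, and all 3 were higher in the conventional pig, as were 52.5% of all named genes. BSG, the chaperone of SLC16A1, gave 0.62, ARL6IP5, which binds a glutamate carrier, 0.70, and PGRMC1, a haem-binding membrane protein, 2.12. Of the SLCO organic anion carriers 2 of 9 had a value. These were SLCO3A1, from 1 probe (590 in the minipig, 2890 in the conventional pig, 2.24), and the prostaglandin carrier SLCO2A1 (0.65). The probes of SLCO2A1 gave 0.16 and 1.15. Of 32 ABC transporters 3 had a value, and ABCD4, which acts in lysosomal vitamin B12 export, was past 2-fold at 1.06.

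Aquaporins, the water and glycerol channels, had 10 of 12 genes with a value and a median of -0.05. Only AQP9, a channel for water, glycerol and other small solutes, was past 2-fold. Its 1 probe read 8.43 in the minipig, not well above background, and 568 in the conventional pig, which makes it at least 51.6-fold higher in the conventional pig. AQP3 was the most on the other side, at -0.96. Of 32 genes of glycolysis and lactate metabolism, 12 had a value, 3 past 2-fold in the conventional pig and 2 in the minipig, beside 11.7% and 7.96% of all named genes. GPI (1.74), PGK1 (1.36) and HK2 (1.32), which act in glycolysis, were on the conventional side. HK2 rested on 1 dim probe that read 22.0 in the minipig and 56.7 in the conventional pig. On the minipig side were ENO3 (-1.04), the muscle-type enolase, and PDK4 (-3.04), a kinase that inhibits pyruvate dehydrogenase. The 9 probes of PDK4 ran from -3.17 to -0.78. The lactate dehydrogenase subunits differed in side, with LDHA at 0.32 and LDHB at -0.86, the latter over 12 probes from -1.10 to -0.72. The median of the 12 genes was -0.22.

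The same arrays differed in markers of ovarian cell types. All 5 luteal markers (STAR, HSD3B1, CYP11A1, PTGFR and SCARB1) were higher in the conventional pig, as were 52.5% of all named genes. They ran from 2.46 to 3.11, each past 3-fold, where 5.46% of all named genes were on that side. Their summed level relative to the 75th percentile was 241 in the conventional pig and 30.4 in the minipig. Granulosa markers had 6 of 8 genes with a value, from -3.63 to 0.09, with 2 of them under 1.3-fold. The value of -3.63, for FSHR, rested on 1 probe. The probes of INHBA disagreed in sign (-3.91 and 0.37), and those of AMH ran from -2.22 to -0.09. The median of the granulosa markers was -1.40 and their summed levels were 16.4 and 28.5, in the same order. All 3 theca markers were below 0, as were 1123 of the 2363 named genes with a value. They ran from -3.76 to -0.62, with summed levels of 11.9 and 82.3. The summed level in the minipig came mostly from 1 gene read by 1 probe, the gene at -3.76. Oocyte markers (4 of 5 with a value) had a median of -0.84 and summed levels of 0.783 and 1.37. Of smooth muscle markers 3 of 5 had a value, with DES at -2.00, CNN1 at -1.32 and ACTA2 at 0.10, and summed levels of 74.7 and 76.2. Each of these markers with a value was well above background on both arrays. The part of these cell types in the SLC values was not tested, and in whole tissue, fewer cells of a type and less RNA per cell cannot be told apart.

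Endothelial markers (2 of 5, from 0.36 to 0.55), leukocyte markers (3 of 5, from -0.25 to 1.04), adipocyte markers (3 of 4, from -0.83 to -0.08), epithelial markers (2 of 4, from -0.28 to 0.31) and the 1 measured red blood cell marker (0.02) were also read. Past 2-fold among them was CD14, a monocyte and macrophage antigen, at 1.04.

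The genes named as past 2-fold kept their direction under each of the other settings that gave a value for them. SLC30A5, SLC26A6, SLC6A8, SLC25A43, SLC5A10 and SLC5A4 were past 2-fold in all 9 settings of correction, normalization, filter and probe summary. SLC6A8 and SLC5A4 had 1 probe each, well above background in both breeds. Filters on dim probes and probe summaries therefore could not change their values. SLC23A2 fell below 2-fold under normexp background correction (0.69), as did SLC7A3 (-0.99). For the rest of the members, direction was less firm. Of the 64 genes, 20 changed sign under at least 1 setting, and SLC16A1 had the largest reported difference among them, 0.70, which became -0.06 from its brightest probe.

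**Figure D5:**
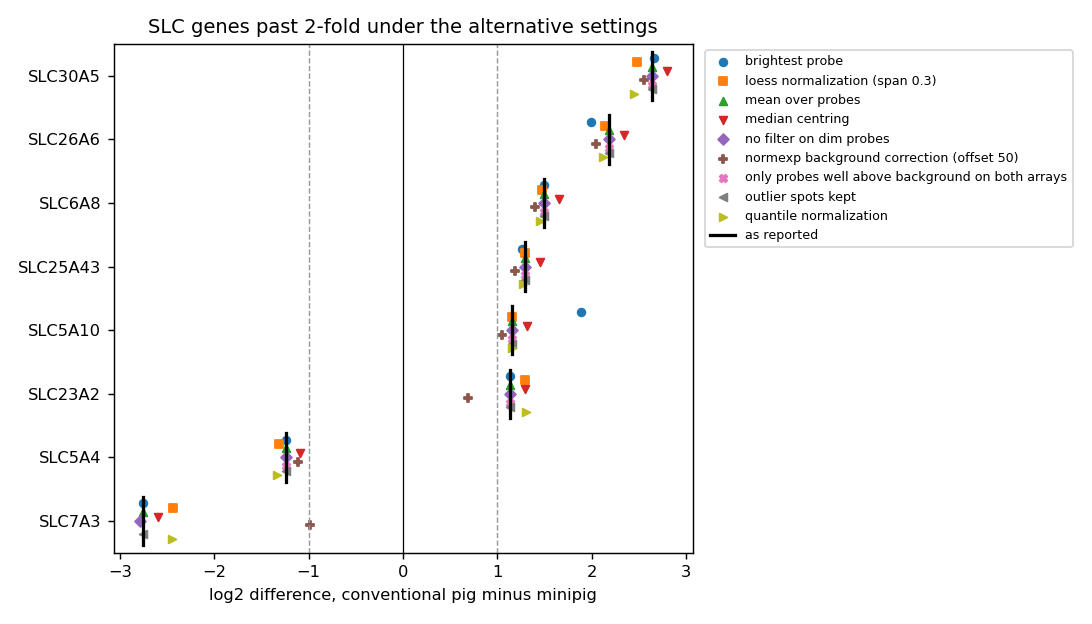
Log2 difference (x axis, conventional pig minus minipig) of 8 SLC genes past 2-fold under up to 9 alternative settings, 1 marker each, with black bars for the values reported and dashed lines at 2-fold. All markers of a gene stay on the same side of 0, and those of SLC23A2 and SLC7A3 cross the 2-fold line.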

How the data were processed

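The authors hybridised Cy3-labelled RNA to single-colour porcine arrays and deposited the output of Agilent Feature Extraction 10.7.3.1, named in the submitters' processing notes, whose processed intensity is background-corrected and not normalized between arrays. In a second table the authors gave 5617 probes as log2 values. It lists 15 SLC probes of 10 genes and equals log2 scanner intensity minus a constant per array, with the breeds exchanged. From the intensities, control and outlier spots were left out, repeated spots averaged as log2, and the 75th percentile of each array subtracted. A probe well above background on 1 array only gave a bound, set against the lowest such intensity of the other array, or against its own signal there if higher. Transcript accessions, stripped of versions, were looked up in RefSeq's gene table for Sscrofa11.1. Neither build nor probe sequence is given in the sources used here, so no coordinates or sequences are shown.

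Named are the genes past 2-fold or detected on 1 array only, the extremes of each substrate class with at least 3 genes, the glucose and lactate carriers, partner genes past 2-fold, and a few others chosen after their values were seen. Some genes that meet this rule are counted but not reported singly here. Members and lists were chosen with earlier results of these data known. No test was run with 1 array per breed, and the number of arrays limits the precision. The alternatives were normexp correction (offset 50, on median signals, since no mean signal was at hand), median centring, quantile and loess (span 0.3) normalization, no filter on dim probes, probes well above background on both arrays, outliers kept, the deposited table, mean or brightest probe, and thresholds of 1.5-fold and 3-fold. R 4.3.3 (limma 3.58.1 for normexp) and Python 3.11.15 (matplotlib 3.10.9, statsmodels 0.14.6, pandas 2.3.3, numpy 2.4.6) were used, and the steps were tested on simulated data.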

Additional observations from a re-analysis of the deposited data

How the results depend on the processing

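Of the alternatives, leaving out the 2 scaffold genes was chosen after seeing the data. The median over SLC genes lay between -0.01 and 0.20, leaving aside the deposited table, which lists 10 SLC genes, and median centring, which raised it most, moved the median of all named genes by 0.15. The number of SLC genes at least 2-fold higher in the conventional pig was 5 to 10 at this threshold, 14 at 1.5-fold and 2 at 3-fold. In the minipig it was 1 under normexp correction, with bounds left out and in the deposited table, 5 at 1.5-fold and 1 at 3-fold. The deposited table gives no separate check of these counts, since it holds the same intensities and almost only genes past 2-fold. Of its 563 named genes, 58.6% were at least 2-fold higher in the conventional pig and 41.0% in the minipig. Of 585 values of single genes under alternatives, 542 moved by less than the spot SD and none past 2-fold reversed. The 542 include values that could not move, such as those of the 28 genes with 1 probe under mean or brightest probe. Naming probes by a gene name column was not run, since the scanner files used here hold no such column. The slide could not be a block, because both arrays lay on it. No paired analysis was possible because each breed had 1 array. SLC7A3, SLC11A2, SLC23A2, SLC25A25 and SLC30A2 moved most under normexp correction.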
